A study of Mus musculus with 6 samples.

Results

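The Mef2 (myocyte enhancer factor 2) family was examined in bone-marrow neutrophils of mice that lack the microRNA miR-223 and of wild-type mice. It was represented by 11 of the 45101 probe sets of an Affymetrix expression array, chosen by their identifiers: 4 for Mef2c, 4 for Mef2a and 3 for Mef2d. Each probe set joins several short probes for one transcript into a single value. The deposited values do not pair probe sets with genes, so the pairing was taken as given with the list of members and was not checked against an annotation of the array. Total RNA of neutrophils labelled miR-223 null was hybridised to 3 arrays and that of neutrophils labelled wild-type to another 3. The labels give no strain, age or sex and no description of how the null allele was made, and neither group is labelled with a treatment. The cells were captured with a Gr-1 antibody and magnetic separation (MACS) straight from the marrow of each mouse. Such antibodies recognise Ly6G, a neutrophil protein, but also Ly6C, so monocytes can be captured with them.

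Mef2 proteins are transcription factors with a MADS-box domain, through which they dimerise and bind A/T-rich DNA sites. At such sites they repress genes while bound to class IIa histone deacetylases and activate them after calcium signals release these repressors. The p38 and ERK5 MAP kinases also promote activation by Mef2 proteins. They are best known from muscle, neurons and lymphocytes. In the myeloid lineage Mef2c acts in progenitor cells, and it is a published target of miR-223, a microRNA that is abundant in neutrophils and their precursors. A microRNA pairs through its seed, a short stretch near its 5′ end, with target transcripts and lowers their stability and translation.

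The seed of miR-223 defines which transcripts can pair with it, so both mature strands are shown, from RefSeq (build GRCm38.p6), with the seed (bases 2 to 8) in capitals. They lie on the plus strand of the Mir223 gene at chrX:96242884-96242905 (3p) and chrX:96242842-96242864 (5p).
mmu-miR-223-3p: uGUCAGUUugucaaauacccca
mmu-miR-223-5p: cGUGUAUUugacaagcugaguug
A transcript pairs with the 3p seed through the letters AACUGAC. Neither seed was shared by another mature entry among the 1674 distinct mature sequences of the table. Transcript sequences of Mef2c, Mef2a and Mef2d were not used here, so sites for miR-223 in them were not searched.

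All values below are the deposited log2 expression values, so that a difference of 1 is a doubling. The median of an array lay between 4.81 and 4.84. All 11 Mef2 probe sets passed the filter on dim probe sets (a mean over the 6 arrays of at least 4.83), and they were tested within the fit of all 22519 probe sets that passed it. Of these 22519, 864 (3.84%) differed between null and wild-type neutrophils at an adjusted p under 0.05 (limma, Benjamini-Hochberg), and 625 (2.78%) were higher in null cells. Among the Mef2 probe sets 5 of 11 passed this threshold, all of them higher in null cells: 4 of 4 for Mef2c, 1 of 4 for Mef2a and 0 of 3 for Mef2d. By a mark that cuts across the groups, the arrays also fell into a brighter and a dimmer technical set, described with the results it touches. Whether each array of a group had its own animal is not in the labels, so the p-values refer to the spread of these arrays, some of which may be technical. Null replicates 1 and 2 were the closest pair of arrays, with an SD of 0.228 for the difference between them over the tested probe sets, against 0.318 to 0.491 for every other pair.

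In the deposited values Mef2c transcripts were almost 2-fold higher in null than in wild-type neutrophils, by nearly the same amount on each of its 4 probe sets. The fold differences were 1.93 to 1.94 (log2 differences 0.95 to 0.96), and no wild-type value reached any null value on any of the 4. With an offset of 16 added to the linear values, the log2 differences were 0.72 to 0.86 (1.64-fold to 1.81-fold). The size of the difference and its likeness over the probe sets thus depend on how dim values are handled. In bulk RNA, less transcript per cell and fewer cells that express the gene cannot be told apart, here or for the other genes.

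Probe set 1451506_AT, the brightest for Mef2c, read 7.63, 7.57 and 7.50 on null replicates 1, 2 and 3 and 6.72, 6.48 and 6.62 on wild-type replicates 1, 2 and 3. The null arrays were all high and lay within 0.13 of each other, and the lowest of them was 0.78 above the highest wild-type array. Null cells averaged 7.57 ± 0.0651 and wild-type cells 6.61 ± 0.12 (SD over 3 arrays each), with a log2 difference of 0.96 with a standard error of 0.112 (limma adjusted p = 0.00782).

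Probe set 1451507_AT read 6.16, 6.16 and 6.13 on the null arrays and 5.33, 4.89 and 5.39 on the wild-type arrays, in the order of their replicate numbers. The null values nearly coincided, while wild-type replicate 2 stood below the other wild-type arrays. The log2 difference was 0.95 with a standard error of 0.152 (limma adjusted p = 0.0217).

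The other Mef2c probe sets carry the suffix _A_AT, which Affymetrix gives to probe sets that match several transcript variants of a gene. Of these, 1421027_A_AT read 6.78, 6.67 and 6.74 on the null arrays against 5.55, 5.54 and 6.24 on the wild-type arrays. Wild-type replicate 3 was the highest wild-type array here and reduced the gap between the groups to 0.43, the smallest of the 4 probe sets. The log2 difference was 0.95 with a standard error of 0.196 (limma adjusted p = 0.0441). For 1421028_A_AT the null arrays read 6.33, 6.46 and 6.40 and the wild-type arrays 5.11, 5.57 and 5.64. Here wild-type replicate 1 was the low array, and the groups were 0.69 apart at their nearest values. The log2 difference was 0.96 with a standard error of 0.16 (limma adjusted p = 0.0243).

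**Figure D1:**
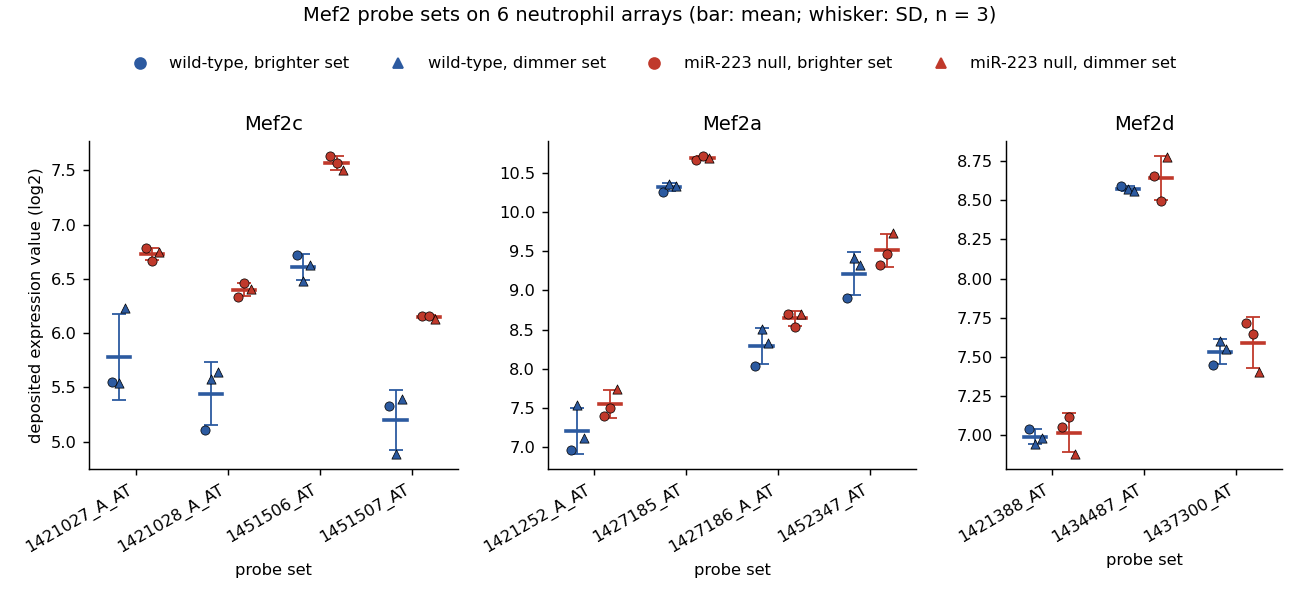
Deposited log2 expression value of each Mef2 probe set on each array, in separate panels (with separate vertical scales) for Mef2c, Mef2a and Mef2d; thick bars are group means, whiskers the SD (n = 3), circles arrays of the brighter and triangles arrays of the dimmer technical set. On all 4 Mef2c probe sets the null arrays lie above the wild-type arrays by at least 0.43, on Mef2a they do so for 2 of 4 probe sets, and on Mef2d the groups overlap throughout.

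The wild-type arrays were the more variable ones for Mef2c. The SD within the null group was 0.0145 to 0.0651 and that within the wild-type group 0.12 to 0.397, and the null SD was the smaller on 4 of 4 probe sets. Over all tested probe sets the null SD was the smaller in 57.0%. For Mef2d it was the larger, at 0.123 to 0.163 against 0.0136 to 0.0799 in the wild-type group. The lowest wild-type Mef2c value, 4.89, lay close to the array medians of 4.81 to 4.84. Which wild-type array was lowest depended on the probe set: it was replicate 2 for 1421027_A_AT, 1451506_AT and 1451507_AT and replicate 1 for 1421028_A_AT. Pearson's r between pairs of Mef2c probe sets over the 6 arrays was 0.86 to 0.98 (6 pairs), a description of values that share the same libraries and the same group difference.

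With each array left out in turn the Mef2c difference stayed between 0.79 and 1.18 over the 4 probe sets, but calls were lost. Fewer arrays were then fitted, and calls fell over the whole table as well. Of the 22519 tested probe sets, 864 were called with all arrays and 85, 147 and 337 without null replicates 1, 2 and 3. Without wild-type replicates 1, 2 and 3 the calls were 592, 503 and 410. For 1451506_AT the limma adjusted p rose above 0.05 only without null replicate 1 (0.0601). For 1451507_AT it did so without null replicate 1 (0.102), 2 (0.0947) or 3 (0.0588), and for 1421028_A_AT likewise without null replicate 1 (0.102), 2 (0.104) or 3 (0.0662). For 1421027_A_AT it did so without null replicate 1 (0.168), 2 (0.132) or 3 (0.104) and without wild-type replicate 1 (0.0974) or 2 (0.104). With the close null replicates 1 and 2 averaged into 1 sample, the differences were 0.94 to 0.96 and none of the 4 passed (limma adjusted p from 0.0535 to 0.15). That fit called 119 probe sets in the whole table.

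Mef2a, a family member that is expressed widely across tissues, had higher mean values in null neutrophils on each probe set, by less than Mef2c. Its 4 probe sets differed by 0.30 to 0.38 on the log2 scale (1.23-fold to 1.30-fold), and 1 of them, 1427185_AT, passed the threshold. The difference in Mef2a was thus between those of Mef2c and Mef2d on every one of its probe sets.

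Probe set 1427185_AT read 10.67, 10.72 and 10.69 on null replicates 1, 2 and 3 and 10.25, 10.35 and 10.34 on wild-type replicates 1, 2 and 3. The groups did not overlap, and both were narrow, with means of 10.69 ± 0.0253 and 10.31 ± 0.0537 (SD, n = 3 each). The log2 difference of 0.38 had a standard error of 0.0657, the smallest among the 11 (limma adjusted p = 0.0279). When any array was left out the difference stayed between 0.34 and 0.40, and the limma adjusted p lay between 0.0556 (without wild-type replicate 1) and 0.125 (without null replicate 2), above the threshold each time: it was 0.12 without null replicate 1, 0.0745 without null replicate 3, 0.0616 without wild-type replicate 2 and 0.0631 without wild-type replicate 3. With null replicates 1 and 2 averaged the difference was 0.37 (limma adjusted p = 0.117). Each of these fits also called fewer probe sets over the whole table than the 864 called with all arrays.

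The other Mef2a probe sets had a wider spread, and their differences were smaller when wild-type replicate 1, a low array, was left out. Without wild-type replicate 1 they fell to 0.14 for 1452347_AT, 0.22 for 1421252_A_AT and 0.23 for 1427186_A_AT, while that of 1427185_AT was 0.34. This array is the only wild-type array of the brighter technical set, described below, so leaving it out mixes group with set. With the set as a block the differences of these other Mef2a probe sets were 0.43 to 0.45. Without null replicate 3 the difference of 1452347_AT was 0.19. Null replicate 3 is in turn the only null array of the dimmer set, so leaving it out also mixes group with set. The part of the set in these changes was not tested. For 1427186_A_AT the null arrays read 8.69, 8.54 and 8.70 and the wild-type arrays 8.04, 8.51 and 8.32. The groups were apart by only 0.031, because wild-type replicate 2 came close to null replicate 2. The difference was 0.35 with a standard error of 0.132 (limma adjusted p = 0.204).

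For 1452347_AT the null arrays read 9.33, 9.46 and 9.74 and the wild-type arrays 8.90, 9.41 and 9.32. Null replicate 1 lay below wild-type replicate 2, and wild-type replicate 1 was far below the rest. The difference was 0.30 with a standard error of 0.161 (limma adjusted p = 0.383). For 1421252_A_AT the null arrays read 7.40, 7.50 and 7.74 and the wild-type arrays 6.97, 7.54 and 7.12, so that wild-type replicate 2 exceeded null replicates 1 and 2. The difference was 0.34 with a standard error of 0.172 (limma adjusted p = 0.353). On all 4 Mef2a probe sets wild-type replicate 1 was the lowest and wild-type replicate 2 the highest wild-type array.

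Mef2d, a family member that many cell types express beside Mef2a, showed no detected difference. Its 3 probe sets differed by 0.027 to 0.069 on the log2 scale, with standard errors of 0.0982 to 0.119 and limma adjusted p from 0.794 to 0.943. Probe set 1434487_AT read 8.65, 8.50 and 8.78 on the null arrays and 8.59, 8.57 and 8.56 on the wild-type arrays. The wild-type values fell inside the range of the null values. For 1437300_AT the null arrays read 7.72, 7.65 and 7.41 and the wild-type arrays 7.45, 7.60 and 7.55, and for 1421388_AT they read 7.05, 7.12 and 6.88 against 7.04, 6.95 and 6.98. On both, null replicate 3 was the lowest of the 6 arrays.

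These values do not show that Mef2d was the same in both groups. The 95% intervals of the 3 differences together ran from -0.23 to 0.33, so that a rise of up to 1.26-fold lies inside them. The difference that Mef2c showed lies outside: the lowest bound of its own intervals was 0.50. Pearson's r between pairs of Mef2d probe sets ran from -0.71 to 0.59 (3 pairs, 6 arrays, a description only). The r of the Mef2c pairs includes the group difference they share, and none was detected for Mef2d. The r values of these genes were therefore not compared.

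**Figure D2:**
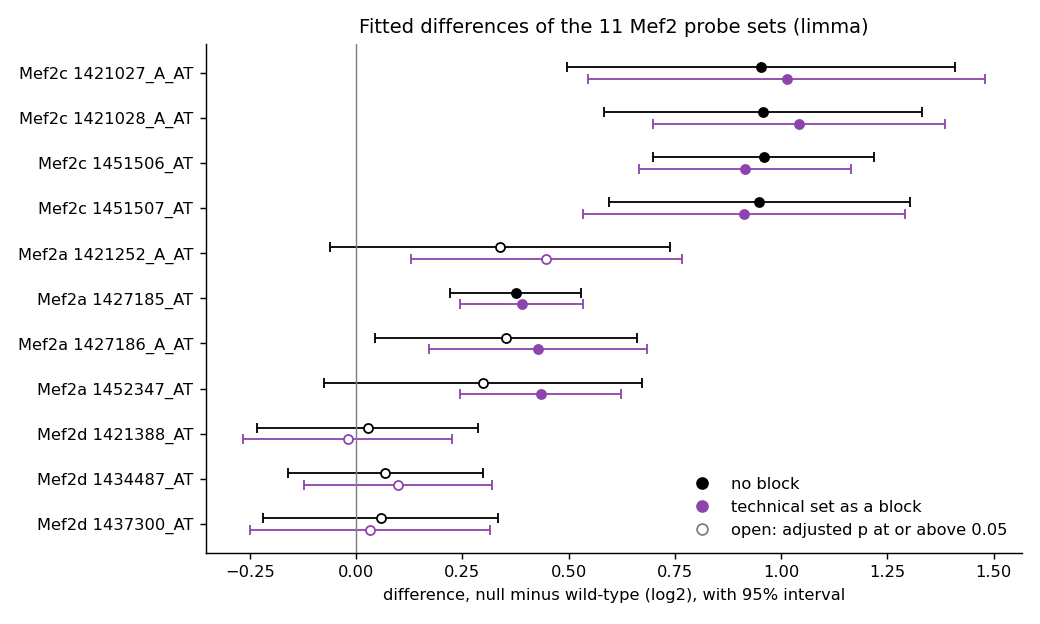
Fitted log2 difference, null minus wild-type, of each Mef2 probe set with its 95% interval (limma), without a block (black) and with the technical set of arrays as a block (purple); filled points have an adjusted p under 0.05. The 4 Mef2c probe sets stand near 0.95 in the fit without a block, the 4 Mef2a probe sets between 0.30 and 0.38 and the 3 Mef2d probe sets near 0.

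The genes were compared with each other within each array, on the mean log2 value of the probe sets of a gene. Because levels of different probe sets cannot be compared, only the change of these within-array differences between the groups was read, in 3 comparisons. Mef2c minus Mef2d was -1.08, -1.04 and -0.99 on the null arrays and -2.02, -2.09 and -1.72 on the wild-type arrays, in replicate order. The groups were well apart, and the change was 0.90 (two-sided exact permutation p = 0.1, the smallest that 3 arrays against 3 allow, and 0.15 after Benjamini-Hochberg adjustment over the 3 comparisons). Relative to Mef2d, Mef2c was higher on every null array than on every wild-type array, but this design cannot bring such a test under 0.05.

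Mef2c minus Mef2a was -2.29, -2.34 and -2.52 on the null arrays and -2.86, -3.33 and -2.80 on the wild-type arrays, again with no overlap. Its change was 0.61 (exact permutation p = 0.1, adjusted 0.15). Mef2a minus Mef2d was 1.21, 1.30 and 1.53 on the null arrays and 0.85, 1.24 and 1.08 on the wild-type arrays. Wild-type replicate 2 reached into the null range, and the change was 0.29 (exact permutation p = 0.2, adjusted 0.2). This test leaves the technical sets, described next, out of account. Within the brighter set both null arrays (1.21 and 1.30) were above the wild-type array (0.85), and within the dimmer set the null array (1.53) was above both wild-type arrays (1.24 and 1.08). With any array left out the changes were 0.83 to 1.01 for Mef2c minus Mef2d, 0.45 to 0.71 for Mef2c minus Mef2a and 0.19 to 0.38 for Mef2a minus Mef2d.

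The arrays parted by their hybridization controls, bacterial and phage sequences that Affymetrix protocols add after labelling. None of the Mef2 probe sets differed along that line by an amount that passed the threshold, the largest difference being of Mef2a. The mean of 18 such control probe sets was 10.94 to 10.98 on null replicates 1 and 2 and wild-type replicate 1 (the brighter set) and 10.72 to 10.81 on null replicate 3 and wild-type replicates 2 and 3 (the dimmer set). The log2 difference between 3′ and 5′ probe sets, a sign of RNA and labelling quality, was 0.23 to 0.33 for Gapdh in the brighter set and 0.038 to 0.17 in the dimmer set. The labels name no batch. Mef2a probe set 1452347_AT was 0.40 higher in the dimmer set (limma adjusted p = 0.0561 for the set), 1421252_A_AT 0.33 higher (limma adjusted p = 0.227), 1427186_A_AT 0.23 higher (limma adjusted p = 0.291) and 1427185_AT 0.044 higher (limma adjusted p = 0.749). Of the Mef2c probe sets, 1421028_A_AT was 0.25 higher in the dimmer set (limma adjusted p = 0.38) and 1421027_A_AT 0.18 higher (limma adjusted p = 0.672). For 1451506_AT and 1451507_AT the differences, dimmer minus brighter, were -0.13 and -0.11. Those of Mef2d ran from -0.14 to 0.090. The part of the sets in these values was not tested beyond this fit.

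With the set as a block, which called 2466 of the 22519 probe sets (11%), of which 1255 (5.57%) were higher in null cells, 7 of the 11 Mef2 probe sets passed: 4 of 4 for Mef2c, 3 of 4 for Mef2a and 0 of 3 for Mef2d. The Mef2a differences were then 0.39 to 0.45. Probe set 1452347_AT moved to 0.43 (limma adjusted p = 0.0181) and 1427186_A_AT to 0.43 (limma adjusted p = 0.049), while 1421252_A_AT at 0.45 did not pass (limma adjusted p = 0.0809). With the set block and no filter on dim probe sets, 1427186_A_AT did not pass either (limma adjusted p = 0.0713). The mean of the 4 Mef2a probe sets differed by 0.34 without the block (limma adjusted p = 0.185) and by 0.42 with it (limma adjusted p = 0.0251), and the mean of the 3 Mef2d probe sets by 0.051 (limma adjusted p = 0.846) and 0.038 (limma adjusted p = 0.859). The Mef2c differences were 0.91 to 1.04 with the block (limma adjusted p from 0.00439 to 0.0213) and those of Mef2d -0.020 to 0.099 (limma adjusted p from 0.587 to 0.937).

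Each set holds both groups, so the difference could also be read within it, with no test, since in each set a group has a single array. In the brighter set (null replicates 1 and 2 against wild-type replicate 1) Mef2c differed by 0.83 to 1.29 and by 0.80 to 1.00 in the dimmer set (null replicate 3 against wild-type replicates 2 and 3). For Mef2a the differences were 0.44 to 0.57 in the brighter and 0.28 to 0.41 in the dimmer set, so all 4 probe sets were higher in null cells in both. The within-set values for Mef2d took both signs, from -0.013 to 0.24 in the brighter and from -0.17 to 0.21 in the dimmer set. In the brighter and the dimmer set, respectively, Mef2c minus Mef2d changed by 0.95 and 0.91, Mef2c minus Mef2a by 0.54 and 0.55, and Mef2a minus Mef2d by 0.41 and 0.37.

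**Figure D3:**
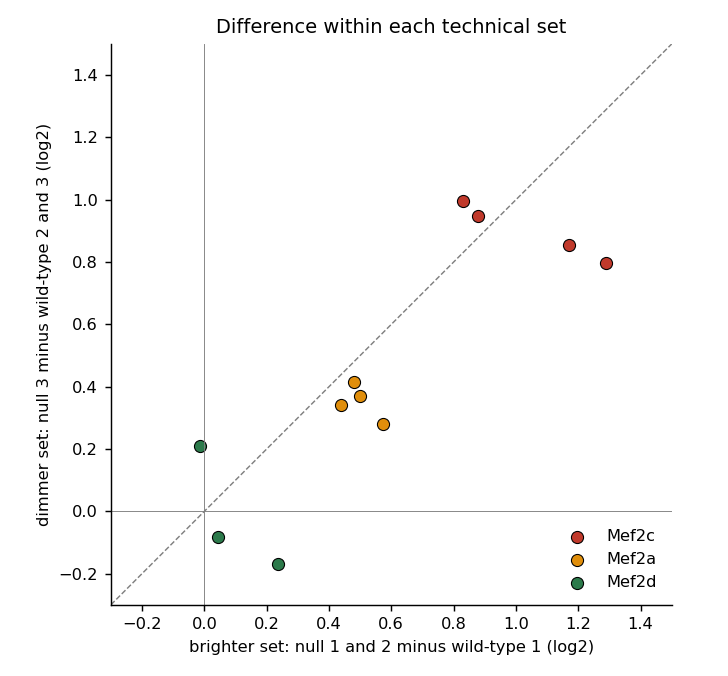
Log2 difference, null minus wild-type, of each Mef2 probe set in the dimmer set of arrays (vertical) against that in the brighter set (horizontal), which share no array; the dashed line marks equal differences. The Mef2c points lie at 0.80 or above on both axes, the Mef2a points between 0.28 and 0.57, and the Mef2d points on both sides of 0.

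In the whole table the Mef2c difference was a large but not an extreme one. Ordered from the largest difference upward, the Mef2c probe sets took ranks 192, 195, 197 and 199 of 22519, with 0.85% to 0.88% of the tested probe sets above them. Among the 625 probe sets that rose, 75.8% rose by less than every Mef2c probe set, and their median rise was 0.72. For Mef2a 7.86% to 10.7% of the tested probe sets had a larger difference upward. The called rise of 1427185_AT was small for a call, since only 3.2% of the 625 rises were smaller. The 3 Mef2d probe sets were exceeded by 34.5% to 42.4% of the tested probe sets. The median difference of the 11 Mef2 probe sets was 0.35, and that of all tested probe sets was -0.0080. In 6 of the 11 every null value lay above every wild-type value, against 12.8% of all tested probe sets.

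**Figure D4:**
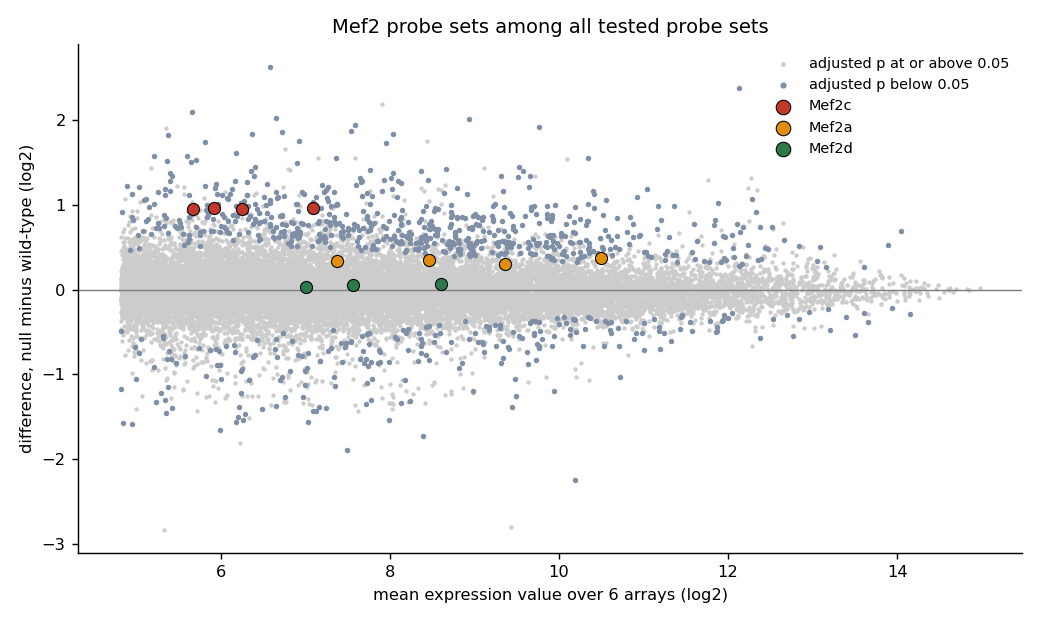
Log2 difference, null minus wild-type, against the mean log2 expression value over 6 arrays for the 22519 tested probe sets; grey-blue points have a limma adjusted p under 0.05 and the Mef2 probe sets are coloured by gene. The Mef2c points lie near 0.95 among dim to middling probe sets, the Mef2a points between 0.30 and 0.38 and the Mef2d points close to 0.

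The pattern of 1451506_AT over the 6 arrays was matched with that of the 2581 other tested probe sets whose SD over the arrays was within 1.5 times of its own. The most similar Mef2 probe set was 1451507_AT, with Pearson's r = 0.98 and rank 77 of 2581, followed by 1421027_A_AT at 0.90 (rank 382) and 1421028_A_AT at 0.89 (rank 397). An r over 0.9 was reached by 14.4% of the 2581, all of which share these 6 libraries and many the difference between the groups. The probe sets that ranked above have no gene name in the sources used here. Mef2a probe set 1427185_AT varied too little to enter this comparison and had an r of 0.95 with 1451506_AT, against 0.48 to 0.68 for the other Mef2a and 0.27 to 0.36 for the Mef2d probe sets.

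Mef2 proteins can act on Mef2 genes, and the start sites of all 3 genes were therefore searched for the sequence the family binds, whether or not their probe sets had passed the test. The RefSeq windows from 250 bases before to 50 bases after an annotated start (GRCm38.p6; 1 window for Mef2a, 3 for Mef2c, 1 for Mef2d) were searched for the MEF2 consensus site: CTA, then 4 bases that are each A or T, then TAG, which reads the same on both strands. A match was found in the Mef2a window alone of these 5. It is shown in capitals on the minus strand, at chr7:67372841-67372870, and begins 2 bases before the annotated start, so that it spans it.
Mef2a start: ggcctgactcCTAAAAATAGccccggtgtg
Of all 32851 windows of this length, 0.557% held such a match. A match describes letters only, and binding was not measured.

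Neither the loss of miR-223 in the arrays labelled null nor the neutrophil identity of the cells was checked, because the probe sets of these genes could not be named. For the same reason the partners of Mef2 (class IIa histone deacetylases, MAP kinases, calcium-dependent kinases and phosphatases), its targets and the markers of B cells, monocytes and progenitors, which also express Mef2c, were not analysed here. Their part in the Mef2c and Mef2a differences was not tested.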

How the data were processed

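The authors' deposited values are log2 expression values, 1 per probe set and array; the log2 scale was read from their range (2.12 to 14.98). Per the submitters' processing notes GCOS was used; how background, scaling and summary were handled is not stated in the sources used here. Sorted columns differed by at most 0.0890 between arrays, so no further scaling was applied. The 64 control probe sets were left out, and probe sets with a mean at or above the median of means (4.83) were tested: 22519, each on its own. Differences were fitted in R 4.3.3 with limma 3.58.1 (eBayes with trend, two-sided, without covariates), adjusted by Benjamini-Hochberg over all of them, threshold 0.05; the code was tested on simulated data. A further 3 within-array differences between genes used exact permutation tests (scipy 1.17.1). Figures were drawn with matplotlib 3.10.9. Precision is limited by the number of arrays: log2 differences had a median standard error of 0.128.

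The members, lists, tests and alternatives, the technical sets included, were chosen with earlier results of these data known. Planned lists of Mef2 partners, targets and cell type markers were not run, nor was the search for genes with a pattern like that of Mef2c by name, since only control probe sets and the 11 members have names. All 11 members are named. Alternatives were other filters, scalings, an offset of 16 on linear values, no intensity trend, blocks, averaged arrays and each array left out. Arrays with the same replicate number deviated together with r = 0.211, -0.124 and 0.371, so the numbers were not taken to pair samples.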

Additional observations from a re-analysis of the deposited data

How the results depend on the processing

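The 4 Mef2c and 4 Mef2a differences kept their sign in all alternatives they entered. The offset of 16 on linear values lowered the Mef2c differences to between 0.72 and 0.86, with all 4 still passing. With the intensity trend left out, 1421027_A_AT (0.95, limma adjusted p = 0.0536) and 1427185_AT (0.38, limma adjusted p = 0.066) did not pass. That fit called 607 probe sets in the whole table, in place of 864. With null replicates 1 and 2 averaged, none of the 5 called members passed: 0.96 for 1421027_A_AT (limma adjusted p = 0.15), 0.96 for 1421028_A_AT (0.101), 0.94 for 1451506_AT (0.0535), 0.94 for 1451507_AT (0.0955) and 0.37 for 1427185_AT (0.117). The mean of the Mef2a probe sets in place of the brightest gave 0.34 (limma adjusted p = 0.185). Fitted together with the set block, a setting chosen after seeing the data, this mean gave 0.42 and passed (limma adjusted p = 0.0251). With the technical set as a block, 1427186_A_AT (0.43) and 1452347_AT (0.43, also 0.43 with no filter, limma adjusted p = 0.0258) passed, and 1421388_AT of Mef2d turned to -0.020, with and without the filter. It was -0.0071 with null replicates 1 and 2 averaged.

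With each array left out, 1421027_A_AT ranged from 0.84 to 1.18, 1421028_A_AT from 0.79 to 1.06, 1451506_AT from 0.90 to 1.02, 1451507_AT from 0.79 to 1.04 and 1427185_AT from 0.34 to 0.40. The other Mef2a probe sets moved more: 1421252_A_AT from 0.22 to 0.50, 1427186_A_AT from 0.23 to 0.46 and 1452347_AT from 0.14 to 0.40, each lowest without wild-type replicate 1. The Mef2d probe sets 1421388_AT (-0.024 to 0.096) and 1437300_AT (-0.0064 to 0.15) changed sign. Over the table, 864 calls became 2466 with the set block (50.9% higher in place of 72.3%), 2098 with the set block and no filter, 119 with the averaged arrays, and 85 to 592 with an array left out; fewer arrays were then fitted.

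With the replicate number as a block, 857 probe sets passed and each member kept its side of the threshold (1451506_AT 0.96, limma adjusted p = 0.0184; 1427185_AT 0.38, limma adjusted p = 0.0415). The numbers were not taken to pair samples. Of the members, 6 passed the stricter filter, none of them for Mef2c; the settings foreseen for lists of other genes were not run.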
